A study of Mus musculus with 6 samples.

Results

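The p53 and senescence genes described here are 10 genes chosen by name: the tumour suppressor *Trp53*, 7 genes that p53 can activate (*Cdkn1a*, *Mdm2*, *Ccng1*, *Phlda3*, *Eda2r*, *Bbc3* and *Trp53inp1*), and 2 inhibitors of cyclin-dependent kinases that are used as senescence markers (*Cdkn2a* and *Cdkn2b*). Each was the row of the count table that carries its name, and all 10 were found among the 54532 listed genes and passed the filter on low counts with 15449 genes in all. RNA-Seq of poly-A RNA was made from whole liver of 6 mice, 3 g*Spns1*-cKO and 3 control. The g*Spns1*-cKO mice were *Spns1* fl/fl with Rosa26Cre-ERT2, a Cre that tamoxifen activates in the whole body, so the loss of exon 3 was not limited to hepatocytes. Tamoxifen was injected on alternate days in the second and the third postnatal week. The controls were *Spns1* fl/fl littermates without Cre, which the labels call wild type. Cre was present in g*Spns1*-cKO mice only, so Cre with tamoxifen and the loss of *Spns1*, the lysosomal lysolipid transporter, cannot be told apart. Whether the controls received tamoxifen, and the age and sex of the sequenced mice, are not given in the sources used here.

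p53, the product of *Trp53*, is a transcription factor that is kept low by the ubiquitin ligase MDM2 and is stabilized when DNA damage or another stress interrupts that loop. It then activates genes that halt the cell cycle, induce death or limit growth signalling, and *Mdm2* itself. Senescence is a lasting exit from the cell cycle in which p21 (*Cdkn1a*) and the products of *Cdkn2a* and *Cdkn2b* hold cyclin-dependent kinases in check, so that the retinoblastoma proteins keep E2F factors inactive. p53 is controlled largely at the level of its protein, which these libraries did not measure.

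The libraries held between 30350002 and 35295611 counts. Library scale factors from TMM, the trimmed mean of M values, ranged from 0.834 to 0.873 for controls and from 1.16 to 1.18 for g*Spns1*-cKO mice, so levels are given as CPM (counts scaled to a common library total) after TMM scaling. *Spns1* fell from 40.4 ± 8.98 CPM (SD, n = 3) in control livers to 22.1 ± 7.40 CPM in g*Spns1*-cKO livers, with an edgeR adjusted p of 0.0300. That call was lost under upper-quartile scaling (0.0635), with library size only (0.213) and without control replicate 2 or g*Spns1*-cKO replicates 1 or 3 (0.0785 to 0.0910). Counts per gene take in the exons that remain, so they do not measure the loss of exon 3. By Western blot, the paper reported a reduced SPNS1 protein band in g*Spns1*-cKO livers. Across all genes tested, 41.8% passed an adjusted p of 0.05 in edgeR's quasi-likelihood test, with 21.3% of all tested genes higher and 20.5% lower with the deletion. The Y-linked *Ddx3y* had between 1731 and 2568 counts and *Xist* at most 5 counts in every library. In bulk liver, fewer cells of a type and less RNA per cell cannot be told apart.

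Of the 10 genes, 4 were called higher (*Cdkn1a*, *Phlda3*, *Cdkn2a* and *Trp53*), 0 were called lower and 6 did not pass, against the 21.3% and the 20.5% of all genes. For 5 of the 10, the 3 g*Spns1*-cKO libraries all lay above the 3 control libraries, against 27.1% of all genes tested, and 26.9% of all genes lay below in the same way. The median log2 fold change of the 10 genes was 0.40, that of all genes 0.014. The levels by library are plotted first, and upstream sequences of some of the genes follow.

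**Figure D1:**
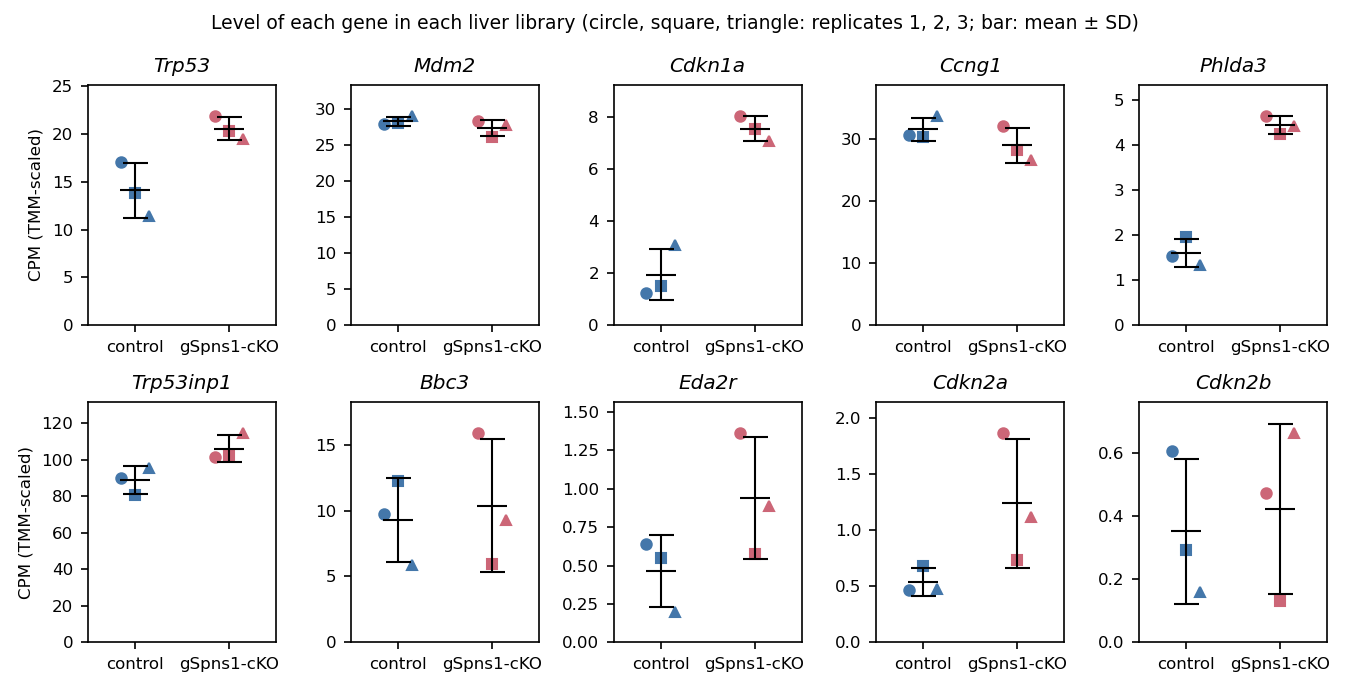
TMM-scaled CPM (linear axes from 0) of each of the 10 genes in the 3 control (blue) and the 3 g*Spns1*-cKO libraries (red), with the marker shape giving the replicate and the bars the mean ± SD. The groups stand clear of each other for *Cdkn1a* and *Phlda3*, lie close for *Mdm2* and *Ccng1*, and are spread widely in *Bbc3*, *Eda2r*, *Cdkn2a* and *Cdkn2b*.

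Upstream sequence is shown for 5 of the genes because they are p53 or its targets and moved differently: *Cdkn1a*, *Phlda3* and *Trp53* were called higher, *Mdm2* and *Ccng1* were not called. Each line gives the 200 bases before a RefSeq transcription start (GRCm38.p6), 5′ to 3′ on the strand of the gene. For *Cdkn1a*, which has a further RefSeq start downstream, the upstream one is shown. Capitals mark matches to the p53 half-site, the decamer to which a p53 dimer binds, whose pattern is its own reverse complement, so a match counts on both strands.
Cdkn1a, chr17:29090779-29090978 (plus strand): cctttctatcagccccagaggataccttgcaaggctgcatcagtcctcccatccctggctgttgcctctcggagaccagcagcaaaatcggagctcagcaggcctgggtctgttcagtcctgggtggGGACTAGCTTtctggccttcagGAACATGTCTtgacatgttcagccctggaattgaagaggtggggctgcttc
Phlda3, chr1:135765885-135766084 (plus strand): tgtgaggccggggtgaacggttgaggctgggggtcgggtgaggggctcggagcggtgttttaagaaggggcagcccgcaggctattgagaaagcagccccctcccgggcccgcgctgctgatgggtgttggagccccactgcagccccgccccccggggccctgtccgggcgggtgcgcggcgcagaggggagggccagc
Trp53, chr11:69580159-69580358 (plus strand): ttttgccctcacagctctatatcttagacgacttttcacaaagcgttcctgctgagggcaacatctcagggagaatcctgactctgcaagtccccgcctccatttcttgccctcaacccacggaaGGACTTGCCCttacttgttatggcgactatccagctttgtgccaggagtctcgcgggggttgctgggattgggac
Mdm2, chr10:117710759-117710958 (minus strand): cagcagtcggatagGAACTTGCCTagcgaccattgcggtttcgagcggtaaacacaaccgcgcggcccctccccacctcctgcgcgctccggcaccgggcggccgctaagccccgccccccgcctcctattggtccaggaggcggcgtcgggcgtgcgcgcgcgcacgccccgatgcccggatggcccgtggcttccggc
Ccng1, chr11:40755287-40755486 (minus strand): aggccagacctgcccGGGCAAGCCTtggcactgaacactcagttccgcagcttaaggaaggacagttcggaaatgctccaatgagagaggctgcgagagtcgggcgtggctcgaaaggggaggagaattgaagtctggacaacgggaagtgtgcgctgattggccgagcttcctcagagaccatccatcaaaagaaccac

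In the printed *Cdkn1a* window the decamers GGACTAGCTT and GAACATGTCT began 73 and 51 bases before the start and were separated by 12 bases. The bases tgacatgttc, which follow GAACATGTCT directly, miss the pattern at their first base only, so they were not marked. The further *Cdkn1a* window, at chr17:29093519-29093818, held no match. *Trp53* held GGACTTGCCC, *Mdm2* GAACTTGCCT and *Ccng1* GGGCAAGCCT, beginning 75, 186 and 185 bases before their starts. Of the 10 genes, 9 had RefSeq windows (250 bases before to 50 after a start, 13 windows in all), and only these 4 genes held a match, with none in *Phlda3*, *Cdkn2a*, *Cdkn2b*, *Bbc3* or *Eda2r*. Among all 32851 windows, 8.36% held at least 1 decamer and 0.359% at least 2, while 0.0731% held a pair at most 13 bases apart as in *Cdkn1a*. A match is a string of letters and not a measured binding site, and matches outside these windows were not searched for. Whether the matches bear on the levels was not tested.

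*Cdkn1a* encodes p21, which binds and inhibits cyclin-CDK complexes and is the best known target of p53 in cell cycle arrest. It lies at chr17:29090976-29100727 (GRCm38, plus strand, 4 merged exons). Its level was 1.24, 1.53 and 3.08 CPM in control replicates 1, 2 and 3 and 8.06, 7.56 and 7.10 CPM in the g*Spns1*-cKO replicates. The lowest g*Spns1*-cKO library stood above the highest control library, and control replicate 3 was the highest of the controls. The rise was 3.91-fold (log2 1.97 ± 0.30 SE, edgeR adjusted p = 0.000731). Behind these values were 35, 47 and 78 counts in control and 290, 290 and 279 in g*Spns1*-cKO libraries. The gene shares 273 exonic bases with AC167363.2 on the opposite strand, an overlapping gene that had 0 counts in each control and 4 or 5 in each g*Spns1*-cKO library.

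*Phlda3*, whose pleckstrin homology domain protein competes with AKT for membrane lipids and so damps AKT signalling, rose 2.75-fold. Its level was 1.53, 1.95 and 1.34 CPM in the control libraries and 4.64, 4.25 and 4.43 CPM in the g*Spns1*-cKO libraries (log2 1.46 ± 0.23 SE, edgeR adjusted p = 0.000723). The g*Spns1*-cKO libraries were tightly grouped, with an SD of 0.197 CPM, and none of them came near the controls. *Cdkn1a* and *Phlda3* were called higher without any single library and under each of the other settings tried, with log2 fold changes between 1.72 and 2.43 and between 1.34 and 1.90.

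*Trp53* itself was higher by a smaller amount. It was at 17.1, 13.8 and 11.4 CPM in control and at 21.9, 20.3 and 19.5 CPM in g*Spns1*-cKO livers, a 1.46-fold difference (log2 0.54 ± 0.15 SE, edgeR adjusted p = 0.0151). The groups did not overlap, and control replicate 1 came nearest to the g*Spns1*-cKO libraries. Control replicate 3, the lowest control for *Trp53*, was the highest control for *Cdkn1a*. Leaving out control replicate 3 gave a log2 fold change of 0.40 for *Trp53* with an adjusted p of 0.0557. *Wrap53*, the neighbour that starts on the other strand close to *Trp53* and encodes a telomerase and Cajal body protein, fell by 0.70 on the log2 scale (adjusted p = 0.00769, or 0.231 with library size only). It went from 11.1 ± 0.955 to 6.86 ± 1.25 CPM (SD, n = 3).

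The ubiquitin ligase that degrades p53 did not pass the test. *Mdm2* was at 27.8, 28.0 and 29.0 CPM in control and at 28.2, 26.1 and 27.8 CPM in g*Spns1*-cKO livers. The groups overlapped, and the log2 fold change was -0.05 ± 0.10 (SE, edgeR adjusted p = 0.735). *Mdm4*, which encodes the partner of MDM2 that covers the activation domain of p53, rose 1.40-fold from 43.6 ± 5.82 to 61.2 ± 6.52 CPM (adjusted p = 0.0112, or 0.0505 and 0.0549 without control replicates 2 and 3). *Ccng1*, encoding cyclin G1, a p53 target that recruits a phosphatase to MDM2, was at 30.7, 30.4 and 33.8 CPM in control and at 32.2, 28.2 and 26.7 CPM in g*Spns1*-cKO livers. Its groups overlapped, with a log2 fold change of -0.12 ± 0.11 (SE, adjusted p = 0.403).

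The direction of *Mdm2* and *Ccng1* depended on how the libraries were scaled. Without TMM factors, the middle of the log2 fold changes over all genes was 0.46, *Mdm2* was at 0.40 (adjusted p = 0.00643) and *Ccng1* at 0.32 (adjusted p = 0.0272), both below that median. Under upper-quartile scaling, with a median of all genes of 0.14, they were at 0.083 and 0.0073. The calls of *Cdkn1a*, *Phlda3*, *Trp53* and *Cdkn2a* held under all 3 scalings and in DESeq2, while limma-voom lost that of *Cdkn2a* (adjusted p = 0.0861).

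**Figure D2:**
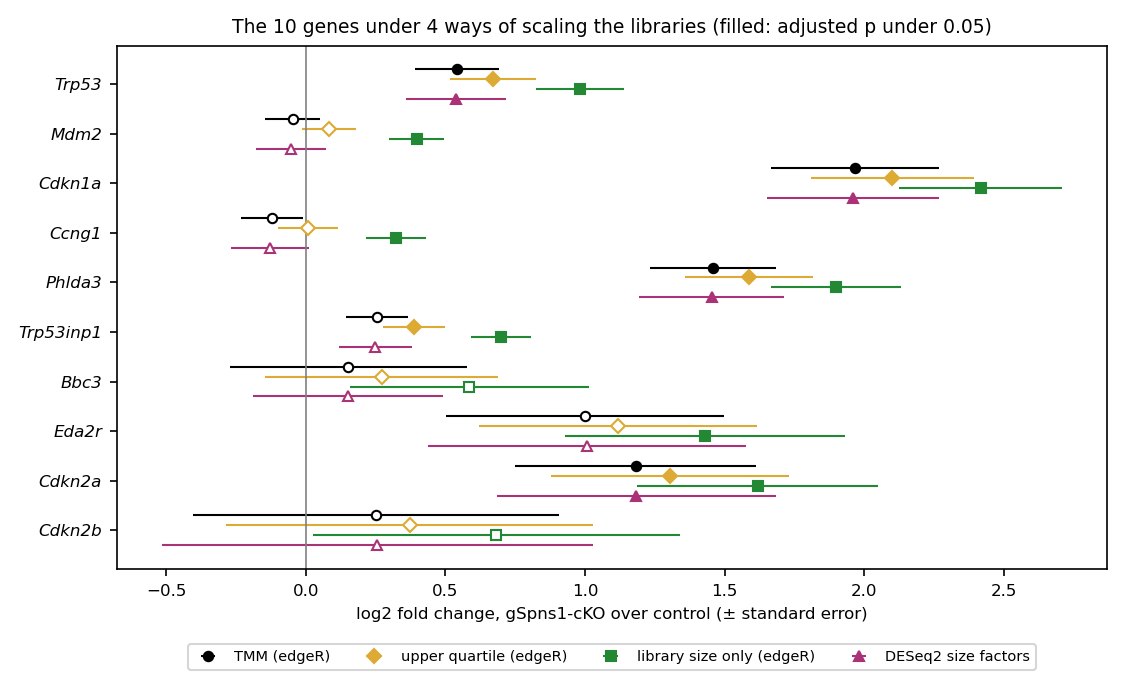
Log2 fold change of g*Spns1*-cKO over control livers (bars, ± SE) for each of the 10 genes under TMM, upper-quartile and library-size scaling in edgeR and under DESeq2, with filled markers for an adjusted p under 0.05. *Cdkn1a* and *Phlda3* lie right of 1 under all 4, while *Mdm2* moves from -0.05 under TMM to 0.40 under library size only.

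A ratio of counts within a library needs no scaling, and this comparison was added after the data had been seen. Per 100 *Mdm2* counts, there were 4.53, 5.51 and 10.7 *Cdkn1a* counts in the control libraries and 28.6, 29.0 and 25.6 in the g*Spns1*-cKO libraries. For *Phlda3* the ratios were 5.55, 7.02 and 4.70 against 16.5, 16.3 and 16.0. For *Trp53* they were 61.5, 49.5 and 39.4 against 77.6, 77.9 and 70.3. In each of these 3 the g*Spns1*-cKO libraries all lay above the controls, for which the exact permutation test gives p = 0.1, the smallest it can give with 3 against 3. *Cdkn2a* and *Trp53inp1* were separated in the same way. *Ccng1* per 100 *Mdm2* counts overlapped, at 110, 109 and 116 in control and 114, 108 and 96.3 in g*Spns1*-cKO livers (exact permutation p = 0.4). This ratio of 2 p53 targets was thus not separated between the groups, while those of *Cdkn1a* and *Phlda3* to *Mdm2* were. *Mdm2*, the only reference used, had a log2 fold change of -0.05 under TMM. The ratios therefore repeat the TMM comparison and are not separate support. The share of all genes separated by such a ratio was not computed.

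**Figure D3:**
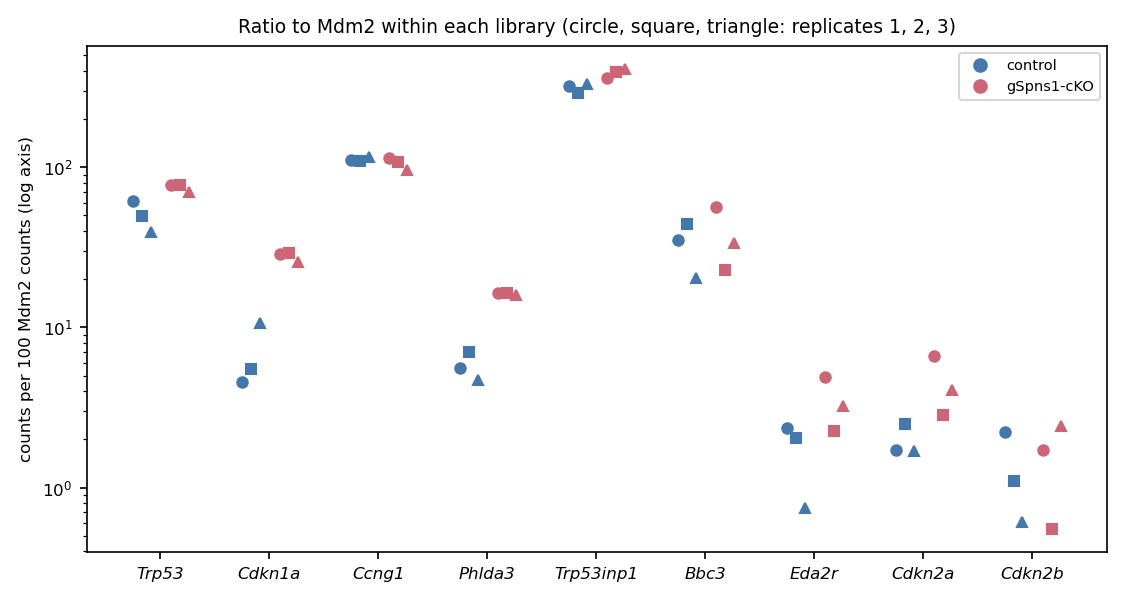
Counts of the other 9 genes per 100 *Mdm2* counts in the same library (log axis), control in blue and g*Spns1*-cKO in red. *Cdkn1a* is between 4.53 and 10.7 in the controls and between 25.6 and 29.0 in g*Spns1*-cKO libraries, while *Ccng1* lies near 100 in both groups.

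The remaining p53 targets among the 10 genes, *Trp53inp1*, *Bbc3* and *Eda2r*, did not pass the test. *Trp53inp1*, which encodes a stress protein that assists p53 and autophagy, was at 90.1, 80.7 and 95.7 CPM in control and at 101, 102 and 115 CPM in g*Spns1*-cKO livers. Its groups did not overlap, but the log2 fold change of 0.25 ± 0.11 (SE) had an edgeR adjusted p of 0.0909, and it was called under library-size and upper-quartile scaling only. *Bbc3*, encoding the BH3-only death activator PUMA, was at 9.71, 12.3 and 5.89 CPM in control and at 15.9, 5.92 and 9.31 CPM in g*Spns1*-cKO livers. The second g*Spns1*-cKO library was as low as the lowest control, and the difference (log2 0.15 ± 0.43 SE, adjusted p = 0.803) was smaller than the spread within either group. *Eda2r*, an X-linked receptor of the TNF receptor family for ectodysplasin A2, had 18, 17 and 5 counts in control and 49, 22 and 35 in g*Spns1*-cKO libraries. That is a mean of 0.463 ± 0.234 against 0.942 ± 0.397 CPM (SD, n = 3), with overlapping groups and a log2 fold change of 1.00 ± 0.50 (SE, adjusted p = 0.131, or 0.0333 with library size only). In *Bbc3*, *Eda2r* and *Cdkn2a* alike, the first g*Spns1*-cKO library was the highest of its group and the second the lowest.

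*Cdkn2a* lies at chr4:89274471-89294653 (GRCm38, minus strand) and encodes 2 unrelated proteins: p16Ink4a, which inhibits CDK4 and CDK6, and p19Arf, which sequesters MDM2. It had 13, 21 and 12 counts in control and 67, 28 and 44 in g*Spns1*-cKO libraries, or 0.540 ± 0.124 against 1.24 ± 0.575 CPM (SD, n = 3). The second g*Spns1*-cKO library, at 0.730 CPM, was just above the highest control at 0.682 CPM. The 2.27-fold difference (log2 1.18 ± 0.43 SE) had an edgeR adjusted p of 0.0483, close to the threshold, and with single libraries left out it passed in 1 of 6 cases, with adjusted p from 0.0241 to 0.206. It did not pass in limma-voom (adjusted p = 0.0861) or with the replicate block (0.0935). The annotation has a transcript that begins at 89294653 and another that begins at 89282192, and they end at 89274541 and 89274471, and counts per gene cannot tell p16Ink4a from p19Arf. The neighbour *Cdkn2b*, encoding p15Ink4b, had 17, 9 and 4 counts in control and 17, 5 and 26 in g*Spns1*-cKO libraries. Its groups overlapped and at this depth no difference was detectable (log2 0.25 ± 0.66 SE, adjusted p = 0.787).

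Per kilobase of gene length, *Trp53inp1* stood highest of the 10 genes and *Eda2r* lowest in both groups. In control livers the mean level was 13.7 CPM per kilobase for *Trp53inp1*, 9.01 for *Ccng1* and 5.56 for *Mdm2*. *Mdm2*, *Bbc3* at 4.37 ± 1.51 and *Trp53* at 3.49 ± 0.706 (SD, n = 3) each did not differ from the next beyond their spread, while *Phlda3* was at 1.03 and *Cdkn1a* at 0.549. From *Phlda3* through *Cdkn1a* and *Cdkn2a* at 0.460 to *Cdkn2b* at 0.253, each gene overlapped the next in this order. In g*Spns1*-cKO livers *Phlda3* reached 2.85 ± 0.126 and *Cdkn1a* 2.13 ± 0.136, still under the 5.38 of *Mdm2*, and *Mdm2*, *Trp53* at 5.09 and *Bbc3* at 4.88 ± 2.38 overlapped. The order of the 10 genes was the same in both groups apart from *Trp53* and *Bbc3*, which changed places.

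The other inhibitors of cyclin-dependent kinases were compared with *Cdkn1a*. Of 5 such genes, 4 were tested and 3 were called higher, against 21.3% of all genes, or 1 without control replicate 2 (17.1% of all genes). *Cdkn1c* (p57) rose from 1.09 ± 0.446 to 3.53 ± 1.87 CPM (edgeR adjusted p = 0.0149), *Cdkn2c* (p18) from 5.52 ± 1.76 to 14.2 ± 1.65 CPM (adjusted p = 0.000816) and *Cdkn1b* (p27) from 22.9 ± 1.33 to 29.6 ± 1.35 CPM (adjusted p = 0.0159; SD, n = 3). In all 3 the g*Spns1*-cKO libraries lay above the controls. The calls of *Cdkn1b* and *Cdkn1c* were each lost without 2 of the 6 libraries (adjusted p up to 0.0616), while that of *Cdkn2c* held throughout. *Cdkn2d* (p19Ink4d) had a log2 fold change of -0.56 with an adjusted p of 0.134 (0.0263 without the first g*Spns1*-cKO library), and *Cdkn3*, with at most 23 counts, was not tested. Per kilobase, *Cdkn1b* was the highest of the 7 inhibitors plotted in both groups.

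**Figure D4:**
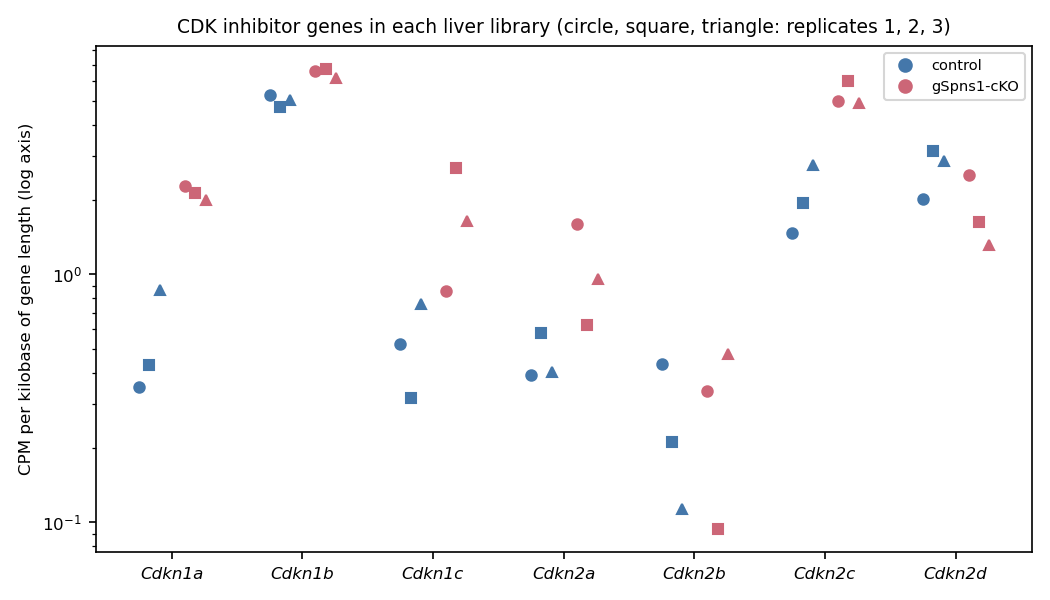
CPM per kilobase of gene length (log axis) of 7 inhibitors of cyclin-dependent kinases in each control (blue) and g*Spns1*-cKO library (red), with marker shapes for the replicates. *Cdkn1a*, *Cdkn1b*, *Cdkn1c*, *Cdkn2a* and *Cdkn2c* are separated between the groups, while *Cdkn2b* and *Cdkn2d* overlap.

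Further genes that p53 is described to activate did not move one way. Of 39 tested of 42, 10 were called higher (25.6%) and 11 lower (28.2%), with a median log2 fold change of 0.18. Under upper-quartile scaling the counts were 13 and 8, and with library size only 23 and 1. Without g*Spns1*-cKO replicate 3 they were 7 and 6. *Ddit4l*, an inhibitor of mTOR signalling, had the largest rise (log2 2.81), followed by *Gdf15*, a stress cytokine (log2 2.07), and *Sulf2*, a heparan sulfatase (log2 1.68). *Gdf15* went from 5.80 ± 1.98 to 24.5 ± 13.6 CPM with an edgeR adjusted p of 0.0218, which rose to between 0.0549 and 0.0744 without control replicates 1 or 3 or g*Spns1*-cKO replicate 3. It was 0.0669 with the replicate block and 0.0727 when every gene with a count was tested. *Sesn1*, a brake on mTOR complex 1, rose 1.56-fold (adjusted p = 0.00664). On the other side the death receptor *Fas* fell from 17.2 ± 1.77 to 9.29 ± 0.724 CPM (SD, n = 3; adjusted p = 0.000548), and *Dcxr* and *Ephx1*, enzymes of carbonyl and epoxide metabolism, were lower by log2 fold changes of -0.96 and -0.82, calls that were lost with library size only. The death effector *Bax* (log2 0.18, adjusted p = 0.274), the RNA-binding target *Zmat3* (log2 0.33, adjusted p = 0.182) and *Sesn2* (log2 0.38, adjusted p = 0.0831) did not pass, although all 3 did with library size only and *Sesn2* under upper-quartile scaling.

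Of the kinases, acetylases, ligases and partners of p53, 27 of 29 were tested, with 5 called higher, 7 lower and a median log2 fold change of -0.07. The calls were 6 and 3 under upper-quartile scaling and 12 and 2 with library size only. Without control replicates 2 or 3 or g*Spns1*-cKO replicate 3, 3 were higher and 3 or 4 lower. The kinases of the damage response *Atm* (log2 0.83) and *Atr* (log2 0.55, not without g*Spns1*-cKO replicate 3) and the p53 kinase *Hipk2* (log2 0.88) rose, whereas *Dyrk2*, another p53 kinase, fell from 55.0 ± 0.811 to 26.9 ± 1.42 CPM (edgeR adjusted p = 4.47e-05). *Trp53inp2*, the relative of *Trp53inp1* that acts in autophagy, fell from 273 ± 39.9 to 96.2 ± 24.0 CPM (SD, n = 3; adjusted p = 0.000233). The p53 relatives *Trp63* and *Trp73* had at most 1 and 4 counts in any library and were not tested. Of the relatives of *Phlda3*, *Phlda2* rose (log2 2.51, adjusted p = 0.00543), and *Phlda1* had a log2 fold change of -1.99 that did not pass (adjusted p = 0.0520, or 0.00369 in DESeq2). It was called without control replicate 1 (0.0442), 2 (0.0477) or 3 (0.00259), and without replicate 3 its log2 fold change was -1.19. That control library was at 59.9 CPM and the others at 18.2 and 18.3 CPM. *Eda*, the gene for the ligand of the *Eda2r* product, was at 2.47 ± 0.756 and 2.68 ± 1.02 CPM with overlapping groups.

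Among retinoblastoma, E2F and G1 cyclin genes, on which CDK inhibitors act, 4 of 26 were called higher (15.4%) and 6 lower (23.1%). All genes tested gave 21.3% and 20.5%, and the median log2 fold change of the list was -0.08. The calls of the list were 8 and 5 under upper-quartile scaling and 10 and 2 with library size only. *Ccnd1*, encoding cyclin D1, rose 6.73-fold, from 14.2, 10.9 and 7.67 CPM in control to 91.8, 48.5 and 80.3 CPM in g*Spns1*-cKO livers (edgeR adjusted p = 0.00119). *Rbl1* (log2 1.61) and *E2f2* (log2 1.25, adjusted p up to 0.159 without a library) also rose, while *Ccne1*, encoding cyclin E1 (log2 -1.67), *Cdk2* (log2 -0.77) and *Ccnd3* (log2 -0.64) fell, of which *Cdk2* and *Ccnd3* were not called with library size only. *Ccng2*, the relative of *Ccng1*, did not pass (log2 -0.22, adjusted p = 0.211).

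Of 26 tested genes of replication and mitosis, 4 were called higher and 0 lower, with a median log2 fold change of 0.16. Without the first g*Spns1*-cKO library the direction turned, with 2 called higher, 5 lower and a median of -0.26. Without control replicates 2 or 3 or g*Spns1*-cKO replicate 3, 2 were called higher. In limma-voom 4 were higher and 2 lower, with a median of 0.019, and in DESeq2 4 and 1. With every gene with a count tested, 5 of 32 were higher and 3 lower. Upper-quartile scaling gave 4 and 0, and library size only 6 and 0. The 4 called higher with edgeR and TMM encode subunits of the MCM helicase, which is loaded on DNA before replication. Among them were *Mcm2* (log2 1.10), *Mcm6* (log2 0.95) and *Mcm3* (log2 0.90, adjusted p up to 0.0928 without a library). The division markers *Mki67* and *Cdk1* did not pass with all libraries (adjusted p = 0.285 and 0.625). *Mki67* had 132, 35 and 49 counts in g*Spns1*-cKO libraries and 19, 21 and 46 in controls, and *Cdk1* 76, 21 and 21 against 40, 30 and 43, so in both genes the first g*Spns1*-cKO library stood above the other 5. This is also the library with the highest *Bbc3*, *Eda2r* and *Cdkn2a*. Without it, *Cdk1* was called lower (log2 -1.33, edgeR adjusted p = 0.0281), *Mki67* was at a log2 fold change of 0.041, and *Cdkn1a* and *Phlda3* were still called higher.

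In the BCL2 family, to which the *Bbc3* product belongs, 4 of 19 genes were called higher and 4 lower (median log2 fold change 0.18). All genes tested gave 21.3% and 20.5%, and the family 21.05% each way. The calls of the family were 5 and 2 under upper-quartile scaling and 11 and 2 with library size only. Without control replicates 2 or 3 or g*Spns1*-cKO replicate 3, 1 gene was called lower, and among the 13 genes with at least 10 counts in every library 1 was higher and 1 lower, with a median of -0.10. The survival gene *Bcl2* rose (log2 1.54) and the BH3-only gene *Bmf* fell from 16.6 ± 0.826 to 4.98 ± 0.158 CPM (SD, n = 3; edgeR adjusted p = 1.12e-05). The other 3 that rose, named after their values were seen, were *Bcl2a1a*, *Bcl2a1b* and *Bcl2a1d*, near-identical copies between which reads can be split.

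Secreted factors that senescent cells are described to release were mostly higher. Of 44 tested of the 53 found, 27 were called higher (61.4%) and 2 lower (4.55%), against 21.3% and 20.5% of all genes. The median log2 fold change was 1.09, with 32 and 2 calls under upper-quartile scaling or 39 and 1 with library size only. *Mmp12*, the macrophage elastase, rose from 0.394 ± 0.170 to 18.0 ± 9.78 CPM, *Ccl2*, which attracts monocytes, from 0.284 ± 0.0629 to 2.74 ± 1.22 CPM and *Lgals3*, galectin-3, from 4.05 ± 0.336 to 37.1 ± 5.88 CPM (SD, n = 3; edgeR adjusted p = 0.000531, 0.000256 and 9.88e-07). The protease inhibitor *Serpine2* (log2 -3.25) and *Igfbp4* (log2 -0.72) fell, the latter not with library size only. *Il6*, the best known of these factors, had 0 counts in 5 libraries and 3 in the other. Several of these factors are also made by macrophages, whose 14 markers were all called higher, with summed levels of 192 to 312 CPM in control and 769 to 1141 CPM in g*Spns1*-cKO livers. Their part in these values was not tested.

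Genes of the nuclear lamina, chromatin, lysosomal senescence stain and control of *Cdkn2a* did not move one way, with 8 of 36 called higher and 10 lower and a median log2 fold change of -0.00039. The calls were 14 and 7 under upper-quartile scaling and 20 and 2 with library size only, and 6 and 5 without g*Spns1*-cKO replicate 3. *Lmnb1*, the lamin that is lost in senescent cells, was at 4.07 ± 0.618 in control and 3.80 ± 1.81 CPM in g*Spns1*-cKO livers (edgeR adjusted p = 0.817). *Glb1*, which encodes the lysosomal galactosidase behind the senescence stain, was at 16.8 ± 3.22 and 15.8 ± 0.220 CPM (SD, n = 3; adjusted p = 0.635). Both overlapped, and both log2 fold changes turned positive under upper-quartile and library-size scaling. *Tbx3*, a repressor of *Cdkn2a* (log2 -1.53), the transcription factor *Cebpb* (log2 -1.25) and the telomerase gene *Tert* (log2 -0.92) fell, while *Uhrf1* (log2 2.88) and *Dnmt1* (log2 0.85), which maintain DNA methylation, and *Id1* (log2 0.81) rose. *Uhrf1* was at a log2 fold change of 1.75 without the first g*Spns1*-cKO library and 3.58 without control replicate 1. Its call was lost without either, without control replicates 2 or 3 and in limma-voom (adjusted p from 0.0582 to 0.110). The call of *Tert* was lost with library size only and without 3 of the single libraries.

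**Figure D5:**
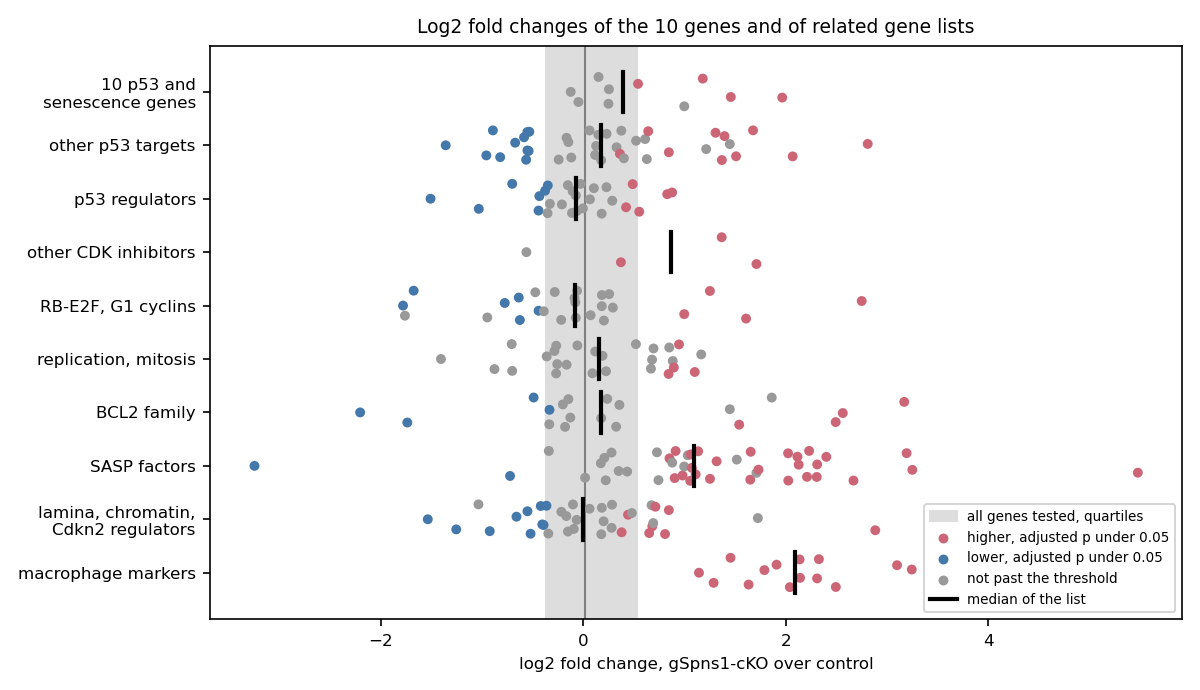
Log2 fold changes (x axis) of the genes tested in each list (points; red higher, blue lower, grey not past the threshold), with the list median (black bar) and the quartiles of all 15449 genes tested (grey band). The medians are 0.40 for the 10 genes, 0.18 for the other p53 targets, 1.09 for the secreted (SASP) factors and 2.09 for macrophage markers.

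Markers of some other liver cell types were mostly called higher, as *Cdkn1a*, *Phlda3* and *Cdkn2a* were, while those of others were not. Beside the macrophage markers, 8 of 10 stellate cell and fibroblast markers were called higher, or 5 without control replicate 3 or g*Spns1*-cKO replicate 3. Their summed level was 224 to 255 CPM in control and 597 to 636 CPM in g*Spns1*-cKO livers. Cholangiocyte markers were called higher in 6 of 7 (59.4 to 77.8 against 186 to 300 CPM), endothelial markers in 5 of 8 (184 to 210 against 255 to 312 CPM) and neutrophil markers in 4 of 5 tested of 7 (3.17 to 5.98 against 9.92 to 16.1 CPM, with *Ly6g* at 0 in 5 libraries). Of 9 T and NK cell markers 3 were called higher and 1 lower (5.12 to 5.68 against 6.78 to 8.24 CPM), of 6 B and plasma cell markers 1 was higher (18.6 to 25.6 against 42.7 to 61.7 CPM), and of 6 tested of 8 erythroid markers 2 were higher and 1 lower (138 to 160 against 88.8 to 195 CPM). Of 14 hepatocyte markers 8 were called lower and 0 higher. Their summed level was 136417 to 147521 CPM in control and 79379 to 89165 CPM in g*Spns1*-cKO livers, so the labelled tissue showed its markers in every library. With library size only, 3 hepatocyte markers were lower and 2 higher (median log2 fold change -0.11, against -0.56 with TMM). Under upper-quartile scaling 6 were lower and 1 higher, and without control or g*Spns1*-cKO replicate 3, 5 were lower. Of all genes tested with TMM, 21.3% were called higher and 20.5% lower. The part of these cell types in the levels of the 10 genes was not tested.

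The 5 genes whose log2 CPM over the 6 libraries was most like that of *Cdkn1a*, among 8010 genes at a mean of 10 CPM or more, were *Il18bp* (Pearson r = 0.997), *Map3k13*, *Vsig4* and *Fth1* (each 0.992) and *Wfdc17* (0.991). Because they were chosen by this r, they share the pattern of *Cdkn1a*. Their g*Spns1*-cKO libraries all lie above the controls, and control replicate 3 lies above the other controls. *Fth1* was not called (edgeR adjusted p = 0.0644). *Il18bp* encodes the binding protein of interleukin 18, and *Vsig4* is a marker of Kupffer cells that is also among the macrophage markers. An r over 0.95 was reached by 145 of these genes, and the 6 points share the difference between the groups and the library scaling.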

How the data were processed

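RNA-Seq of 6 mouse livers was analysed, 3 control and 3 g*Spns1*-cKO, grouped by the labels. The authors deposited 1 table with raw counts per gene and library; the submitters' processing notes name fastp, HISAT2 2.0.5, featureCounts 1.5.0-p3 and mm10, and the strand setting is not given in the sources used here. The authors also deposited FPKM, a mean signal per group, and the log2 fold change and p-value of their own comparison, none of which were used; the deposited gene lengths were used for levels per kilobase.

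The counts were tested with edgeR 4.0.16 under R 4.3.3: filterByExpr, TMM scaling, the robust quasi-likelihood test and Benjamini-Hochberg adjustment over all 15449 genes tested, with a threshold of 0.05. DESeq2 1.42.0, limma 3.58.1 (voom), other scalings, other filters, a replicate block and leaving out each library were alternatives. Single levels were compared by an exact two-sided permutation test on log2(CPM + 0.5), whose smallest p is 0.1, and the test script was checked on simulated data. Ratios to *Mdm2* used counts + 0.5. No pair of libraries of a group was a duplicate, with a chi-square per gene from 41.1 to 122. Positions are of GRCm38, where all 10 genes had the same coordinates in GENCODE M21, and promoter windows are from RefSeq.

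The 10 genes and the gene lists were chosen with earlier results of these data known, so their counts are descriptions. From each list, at most 3 genes per direction were named among those past the threshold with a mean of at least 1 CPM, together with genes named whatever their values, and other names are said to be chosen after their values were seen.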

Additional observations from a re-analysis of the deposited data

How the results depend on the processing

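With library size only, 8 of the 10 genes were called higher, and at an adjusted p under 0.01 there were 2. Leaving out single libraries gave 2 to 4 (2 without control replicate 3) and 0 lower. Over all genes, library size only gave 7289 higher and 970 lower, of all calls 88.3% higher against 50.9% with TMM and 64.7% with upper-quartile scaling, and an adjusted p under 0.01 gave 1983 and 1907. Leaving out single libraries gave 2365 to 3213 higher and 2125 to 3216 lower. The causes were not tested.

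The replicate numbers did not pair the samples (correlations of 0.042, 0.032 and -0.027 for the same number). With the replicate block, 3 of the 10 genes were called higher and none lower, without *Cdkn2a* (adjusted p = 0.0935), and 3084 genes were higher and 3016 lower. The block also lost *Gdf15* (adjusted p = 0.0669), and limma-voom lost *Cdkn2a* (adjusted p = 0.0861).

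Log2 fold changes changed sign as follows. With library size only, *Mdm2* was at 0.40, *Ccng1* 0.32, *Ccng2* 0.23, *Cdk1* 0.082, *Lmnb1* 0.34, *Glb1* 0.36 and *Bcl2l13* 0.11. Under upper-quartile scaling, *Mdm2* was at 0.083, *Ccng1* 0.0073, *Lmnb1* 0.025 and *Glb1* 0.041. Over the fits that left out a single library, *Cdkn2b* ranged from -0.24 to 0.86 (negative without control replicate 3 or g*Spns1*-cKO replicate 3), *Bbc3* from -0.29 to 0.43 (negative without control replicate 3 or g*Spns1*-cKO replicate 1), *Lmnb1* from -0.56 to 0.086, *Glb1* from -0.20 to 0.062 and *Eda* from -0.23 to 0.38. *Cdkn2b* and *Eda2r* gave no value at a minimum of 10 counts in every library. Over all fits of the 10 genes, 109 values left direction and call as they were, 3 added and 8 lost a call in the same direction, and 8 changed sign, of which *Mdm2* and *Ccng1* with library size only were also called. With 3 libraries a group and 4 to 67 counts, *Cdkn2a*, *Cdkn2b* and *Eda2r* were the least precise of the 10 genes.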
